A study of Mus musculus with 6 samples.

Results

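The genes of the route from RANK to the NF-kB transcription factors were followed in cultured mouse osteoclasts as a fixed list of 37 genes. The list was drawn up by symbol from what the encoded proteins are known to do, with earlier results of these data known, and holds 37 of the 23204 genes in the deposited count table. It was divided by role into 9 ubiquitin ligases and adaptors next to the receptor, 12 kinases and kinase partners, the 3 genes of the CARD9-BCL10-MALT1 complex, 5 NF-kB subunits, 4 IkB proteins and 4 ubiquitin-editing inhibitors. All 37 had a row, and all 37 passed the filter on low counts that left 14040 genes for testing; the lowest count of any of them in any library was 113. Bone marrow cells of C57BL/6 mice had been grown for 2 days in M-CSF, and the adherent cells were then turned into osteoclasts with RANKL and M-CSF. The 3 libraries labelled mutant (libraries 2, 3 and 5) carry the genotype Tet2Rank-/-; Tet3aRank+/-, and the other 3 (libraries 1, 4 and 6) are labelled WT. What Rank and the letter a mean in this genotype is not explained by the labels, so the promoter or cell type of the deletion is not given here, and no age is given. By the labels each group has 1 female and 2 male samples, but the column names of the table carry neither sex nor replicate number.

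RANK is the receptor of RANKL, the cytokine that turns macrophage precursors into osteoclasts. On binding, RANK recruits TRAF adaptors, above all TRAF6, whose ubiquitin chains draw in the TAK1 and IKK kinase complexes; IKK marks the inhibitor IkB-alpha for destruction and so frees NF-kB dimers for the nucleus. A slower, noncanonical branch runs through the kinase NIK and the processing of p100 to p52. Several NF-kB target genes, among them those of IkB-alpha and A20, encode inhibitors of the same route.

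Library totals ran from 8794973 to 14267135 counts, and levels are given in CPM, counts brought to a common library size with the TMM factors of edgeR. *Tet2*, the gene of the first allele pair in the label, had 58.2, 45.5 and 52.3 CPM in libraries 2, 3 and 5 and 71.7, 80.9 and 79.3 CPM in WT libraries 1, 4 and 6. The groups did not overlap, with a log2 fold change of -0.57 (SE 0.120, adjusted p = 0.0924); the counts are for whole genes, and which exons were deleted is not given. *Tet3* had 163, 141 and 156 CPM in libraries 2, 3 and 5, against 145, 121 and 127 CPM in the WT libraries, with a log2 fold change of 0.23 (SE 0.117, adjusted p = 0.360). *Tet3* was not lower, although the label gives it as +/-. Whole-gene counts do not show which exons are present, so they cannot decide the genotype, and the group is called by its label throughout. The column names of libraries 5 and 6 carry 2 numbers and the others carry 1, a difference called name format here. Name format splits each group into 1 and 2 libraries, as sex does in the labels, and whether it follows sex was not tested. Libraries 5 and 6 stood apart from the other 4 on the first principal component (68.1% of the variance), while the genotypes separated on the second (15.3%). All 10 osteoclast markers had fold changes below 0, with a median of -1.53 on the log2 scale. Their summed level was 2966, 8448 and 12373 CPM in libraries 2, 3 and 5, against 18416, 15143 and 39699 CPM in WT libraries 1, 4 and 6. All 10 macrophage markers lay above 0, with summed levels of 8621 to 9274 CPM in the libraries labelled mutant and 4917 to 6637 CPM in the WT libraries. The summed level of 6 stromal markers, such as the collagens *Col1a1* and *Col1a2*, was 934 to 4044 CPM in the libraries labelled mutant and 1088 to 2946 CPM in the WT libraries. With name format as a term 7 of the 10 osteoclast markers fell (5.60% of all genes fell). In the same fit 6 of 10 macrophage, 3 of 6 tested dendritic and 4 of 7 neutrophil markers rose (3.08% of all genes rose). The dendritic markers were mixed, with 4 of the 6 tested above 0 and 2 below. Of these 6, 1 was lower in every library labelled mutant than in every WT library. With genotype alone 0 of the markers passed in edgeR. At an unadjusted p under 0.05, 5 osteoclast markers were lower (12.4% of all genes) and 8 macrophage markers higher (7.19% of all genes). DESeq2 called 3 osteoclast markers lower (5.31% of all genes) and 8 macrophage markers higher (4.67% of all genes). Lymphocyte markers summed to 2.66 to 7.74 CPM in the libraries labelled mutant and 1.86 to 4.90 CPM in the WT libraries. In bulk RNA, fewer osteoclasts and less RNA of a gene per cell cannot be told apart.

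Of the 37 genes, 25 had a fold change below 0 (67.6%, against 53.2% of all genes tested) and 12 above. The median log2 fold change, labelled mutant over WT, was -0.22 over the list and -0.03 over all genes tested. In the fit with genotype as the only term, 1 of the 37 fell (*Malt1*) and 0 rose at an adjusted p under 0.05, where 0.0214% of all genes tested fell. At an unadjusted p under 0.05 the list held 18 genes (48.6% of it, against 19.6% of all genes tested). Of these, 14 were lower (12.4% of all genes) and 4 were higher (7.19% of all genes). With name format added as a term, 8 of the 37 fell (21.6%, against 5.60% of all genes) and 2 rose (5.41%, against 3.08% of all genes). The 8 that fell were *Traf1*, *Traf6*, *Birc2*, *Tank*, *Malt1*, *Nfkbia*, *Tnfaip3* and *Tnip1*, and the 2 that rose were *Ikbke* and *Map3k14*. DESeq2 with genotype as the only term called 10 lower (5.31% of all genes) and 2 higher (4.67% of all genes), the same 10 genes and in addition *Birc3* and *Tab2*. Without overlap between the groups, 17 genes were lower in every library labelled mutant than in every WT library (45.9%, against 16.9% of all genes), and 4 were higher in every one (10.8%, against 9.91% of all genes).

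The spread between libraries limits these calls. The common biological coefficient of variation was 40.9% with genotype alone and 23.5% with name format as a term. No member was called when any 1 of the 6 libraries was left out of the genotype fit, and *Malt1* then had adjusted p-values of 0.107 to 0.212. For the 10 genes called with name format as a term, the adjusted p was 0.0126 to 0.0404 in that fit, and 2.35e-13 to 0.378 over all alternatives tried. With name format as a term and library 1, 2, 3 or 4 left out in turn, a set of 4 fits added after seeing the data, *Malt1*, *Ikbke* and *Traf6* were called in all 4, *Birc2* and *Traf1* in 3, *Tank* and *Tnfaip3* in 2, *Nfkbia* and *Tnip1* in 1 and *Map3k14* in 0. Over the whole list 32 of 37 genes had the same sign among libraries 2 and 3 against 1 and 4 as in the ratio of library 5 to library 6 (86.5%, against 71.5% of all genes tested). A test of whether the genotype difference itself differed between name formats (the edgeR interaction term) called 0 of 14040 genes; 129 genes, of the members only *Ikbke*, had an unadjusted p under 0.05. Since libraries 5 and 6 are the only ones of their name format, 1 per genotype, this test had little means to find a difference. The osteoclast and macrophage markers differed between the same libraries, and their part in these differences was not tested.

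**Figure D1:**
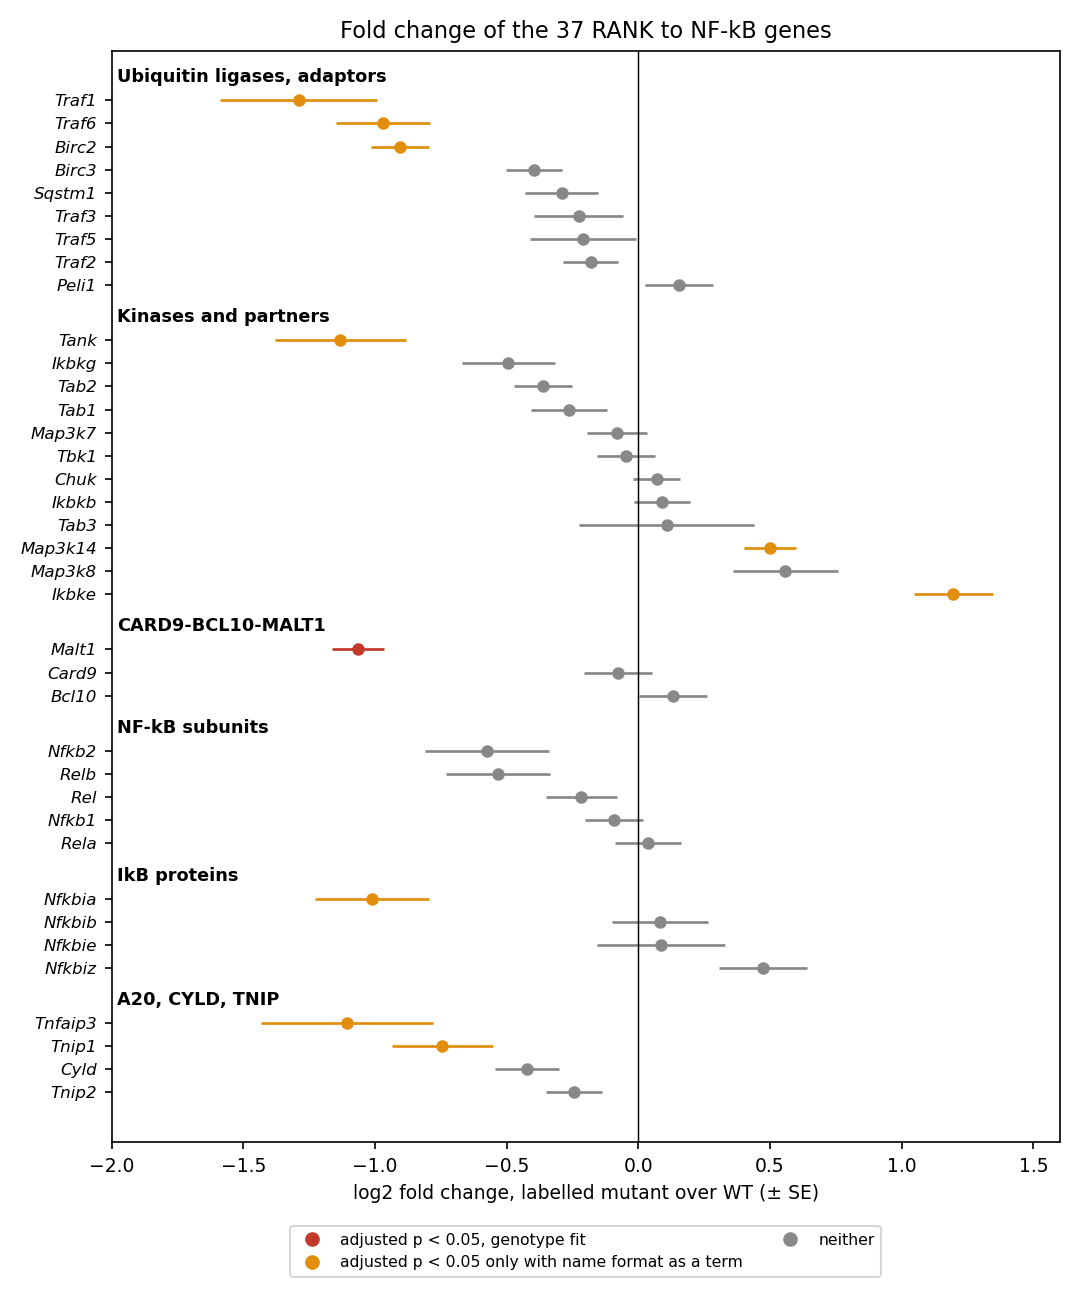
Log2 fold change of each of the 37 genes (labelled mutant over WT, horizontal axis, with bars of 1 SE), ordered within role down the page; red marks the gene called with genotype alone, orange the genes called only with name format as a term. The fold changes ran from -1.29 for *Traf1* to 1.20 for *Ikbke*, and all 4 ubiquitin-editing inhibitors lay below 0.

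Next to the receptor, *Traf6*, *Traf1* and *Birc2* fell with name format as a term. In this role 8 of 9 genes lay below 0 (88.9%, against 53.2% of all genes tested), with a median log2 fold change of -0.29. With name format as a term 3 fell (33.3%, against 5.60% of all genes), 0 rose (against 3.08% of all genes) and 6 did not pass. *Traf6* (ENSMUSG00000027164, chromosome 2, 101678429 to 101701669, plus strand, mm10) encodes the ubiquitin ligase that RANK recruits and without which mice form few working osteoclasts. It had 51.9, 65.5 and 68.9 CPM in libraries 2, 3 and 5, against 118, 100.4 and 146 CPM in WT libraries 1, 4 and 6. Every library labelled mutant was below every WT library, at means of 62.1 ± 9.02 CPM in the libraries labelled mutant and 122 ± 23.1 CPM in the WT libraries (SD, n = 3 each). The log2 fold change was -0.97 (SE 0.179, adjusted p = 0.0786 with genotype alone), -0.89 among the 1-number libraries and -1.08 between libraries 5 and 6.

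*Traf1* (ENSMUSG00000026875, chromosome 2, 34941750 to 34961772, minus strand) encodes a TRAF that lacks the RING domain of the other TRAFs here, and is itself a known NF-kB target. Its level was 44.5, 79.3 and 81.7 CPM in libraries 2, 3 and 5, against 131, 150.4 and 220.3 CPM in WT libraries 1, 4 and 6. The groups did not overlap, but the spread within each was wide, with library 2 the lowest of all 6 and library 6 the highest. At -1.29 (SE 0.297, adjusted p = 0.101) it had the lowest log2 fold change of the list, and the estimate ran from -1.44 to -1.02 as single libraries were left out. *Birc2* (ENSMUSG00000057367, chromosome 9, 7818227 to 7837064, minus strand) encodes cIAP1, a ligase that with TRAF2 and TRAF3 keeps NIK at a low level. *Birc2* had 46.4, 49.8 and 43.3 CPM in libraries 2, 3 and 5, against 78.4, 89.8 and 92.9 CPM in WT libraries 1, 4 and 6, and here the libraries of each group lay close together. Its log2 fold change was -0.90 (SE 0.109, adjusted p = 0.0544).

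*Birc3*, which encodes the related ligase cIAP2 and lies next to *Birc2* on chromosome 9 (7848699 to 7873186, minus strand), had 141, 149 and 158 CPM in libraries 2, 3 and 5, against 209.6, 184 and 197 CPM in the WT libraries. These groups did not overlap either, at a log2 fold change of -0.40 (SE 0.106, adjusted p = 0.128), and the gene did not pass with name format as a term. As the genes are close relatives, how the authors' counting treated reads that fit both is not known. *Sqstm1*, which encodes the scaffold p62 that binds TRAF6 and is mutated in Paget disease of bone in humans, had the highest level of this role. It stood at 675, 625 and 543 CPM in libraries 2, 3 and 5, against 807, 749 and 697 CPM in the WT libraries, with a log2 fold change of -0.29 (SE 0.139, adjusted p = 0.321). Of its exon bases 17.3% lie opposite exons of *Mrnip*, and whether the counting used strand is not given in the sources used here. The other 4 genes were *Traf2* and *Traf5*, adaptors shared with the TNF receptors, *Traf3*, which holds NIK for degradation, and *Peli1*, a Pellino ligase of Toll-like receptor signalling. Their log2 fold changes ran from -0.23 to 0.15 (SE 0.105 to 0.201), with adjusted p-values from 0.416 to 0.661.

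The kinases and their partners went both ways. Of the 12 genes, 6 lay below and 6 above 0, with a median log2 fold change of 0.01. At an unadjusted p under 0.05 the lower ones were partners (*Tank*, *Ikbkg*, *Tab2*) and the higher ones kinases (*Ikbke*, *Map3k14*, *Map3k8*). With name format as a term *Ikbke* and *Map3k14* rose (16.7%, against 3.08% of all genes), *Tank* fell (8.33%, against 5.60% of all genes) and 9 did not pass. *Ikbke* (ENSMUSG00000042349, chromosome 1, 131254343 to 131279606, minus strand) encodes IKK-epsilon, an IKK-related kinase best known for switching on interferon genes with TBK1. It had 122, 124 and 135 CPM in libraries 2, 3 and 5, against 59.8, 62.4 and 44.5 CPM in WT libraries 1, 4 and 6. No library labelled mutant came near a WT library, and the mean was 229% of the WT mean. The log2 fold change was 1.20 (SE 0.150, adjusted p = 0.0544), the highest of the list, with 1.01 among the 1-number libraries and 1.61 between libraries 5 and 6. Its near relative *Tbk1* overlapped between groups, with a log2 fold change of -0.05 (SE 0.111, adjusted p = 0.903).

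*Tank* (chromosome 2, 61578585 to 61654171, plus strand) encodes a scaffold that binds TRAFs on one side and TBK1 and IKK-epsilon on the other, and mice without it have been described to show more NF-kB activity. Its level was 67.1, 107 and 120.2 CPM in libraries 2, 3 and 5, against 222, 173 and 249 CPM in WT libraries 1, 4 and 6. The groups were apart although library 2 was well below libraries 3 and 5, and the log2 fold change was -1.13 (SE 0.250, adjusted p = 0.0962). With name format as a term *Tank* thus fell and *Ikbke* rose, while *Tbk1* did not pass. With genotype alone none of these genes passed.

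*Map3k14* (chromosome 11, 103219762 to 103267472, minus strand) encodes NIK, the kinase at the head of the noncanonical branch. It had 47.1, 49.4 and 47.9 CPM in libraries 2, 3 and 5, against 36.5, 31.3 and 34.4 CPM in WT libraries 1, 4 and 6. The groups were tight and did not overlap, at a log2 fold change of 0.50 (SE 0.0990, adjusted p = 0.0859). *Map3k8*, which encodes TPL2, a kinase held inactive by the NF-kB precursor p105, had 29.7, 26.4 and 25.4 CPM in libraries 2, 3 and 5, against 22.5, 19.1 and 13.8 CPM in the WT libraries. Here too every library labelled mutant was above every WT library, but neither fit passed (log2 fold change 0.56, SE 0.199, adjusted p = 0.194). In the same libraries in which these 3 kinase genes were higher, the summed macrophage markers were higher too (8621 to 9274 CPM labelled mutant, 4917 to 6637 CPM WT), and their part in the result was not tested.

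The core IKK complex held no gene that passed in either edgeR fit. *Ikbkg*, which encodes its ubiquitin-binding subunit NEMO, had 98.1, 133 and 123 CPM in libraries 2, 3 and 5, against 159, 141 and 198 CPM in the WT libraries, without overlap (log2 fold change -0.49, SE 0.177, adjusted p = 0.197). Of its exon bases 5.15% lie opposite *G6pdx*. *Chuk* and *Ikbkb*, which encode the catalytic subunits IKK-alpha and IKK-beta, had log2 fold changes of 0.07 (SE 0.0889) and 0.09 (SE 0.106). *Tab2*, whose protein ties TAK1 to ubiquitin chains, had 197, 219.6 and 213 CPM in libraries 2, 3 and 5, against 266, 252 and 291 CPM in the WT libraries. Its groups did not overlap, and its log2 fold change of -0.36 (SE 0.110, adjusted p = 0.150) passed in DESeq2 but not in edgeR. *Map3k7*, the gene of TAK1 itself, and its partners *Tab1* and *Tab3* had log2 fold changes of -0.08, -0.26 and 0.11, with adjusted p-values of 0.802, 0.389 and 0.935.

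*Malt1* was the 1 gene of the list that fell with genotype as the only term. It encodes the paracaspase of the CARD9-BCL10-MALT1 complex, which carries signals from ITAM-coupled receptors to NF-kB and cleaves inhibitors such as A20 and CYLD. *Malt1* (ENSMUSG00000032688, chromosome 18, 65430938 to 65479067, plus strand) had 37.5, 38.4 and 41.9 CPM in libraries 2, 3 and 5, against 83.9, 86.6 and 76.0 CPM in WT libraries 1, 4 and 6. Within each group the libraries differed little, and the mean of 39.3 ± 2.31 CPM in the libraries labelled mutant was 47.8% of the 82.1 ± 5.49 CPM in the WT libraries (SD, n = 3 each). The log2 fold change was -1.06 (SE 0.0991, adjusted p = 0.0415), with -1.17 among the 1-number libraries and -0.86 between libraries 5 and 6; leaving out any 1 library kept it between -1.12 and -0.99 but lost the call, as given above. Its partners in the complex did not pass. *Card9*, the adaptor, had 60.1, 63.9 and 48.3 CPM in libraries 2, 3 and 5, against 64.2, 59.9 and 57.5 CPM in the WT libraries, with overlap and a log2 fold change of -0.08 (SE 0.129, adjusted p = 0.846) whose sign turned without library 5 (0.030). *Bcl10*, the bridge between CARD9 and MALT1, had a log2 fold change of 0.13 (SE 0.129, adjusted p = 0.673).

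**Figure D2:**
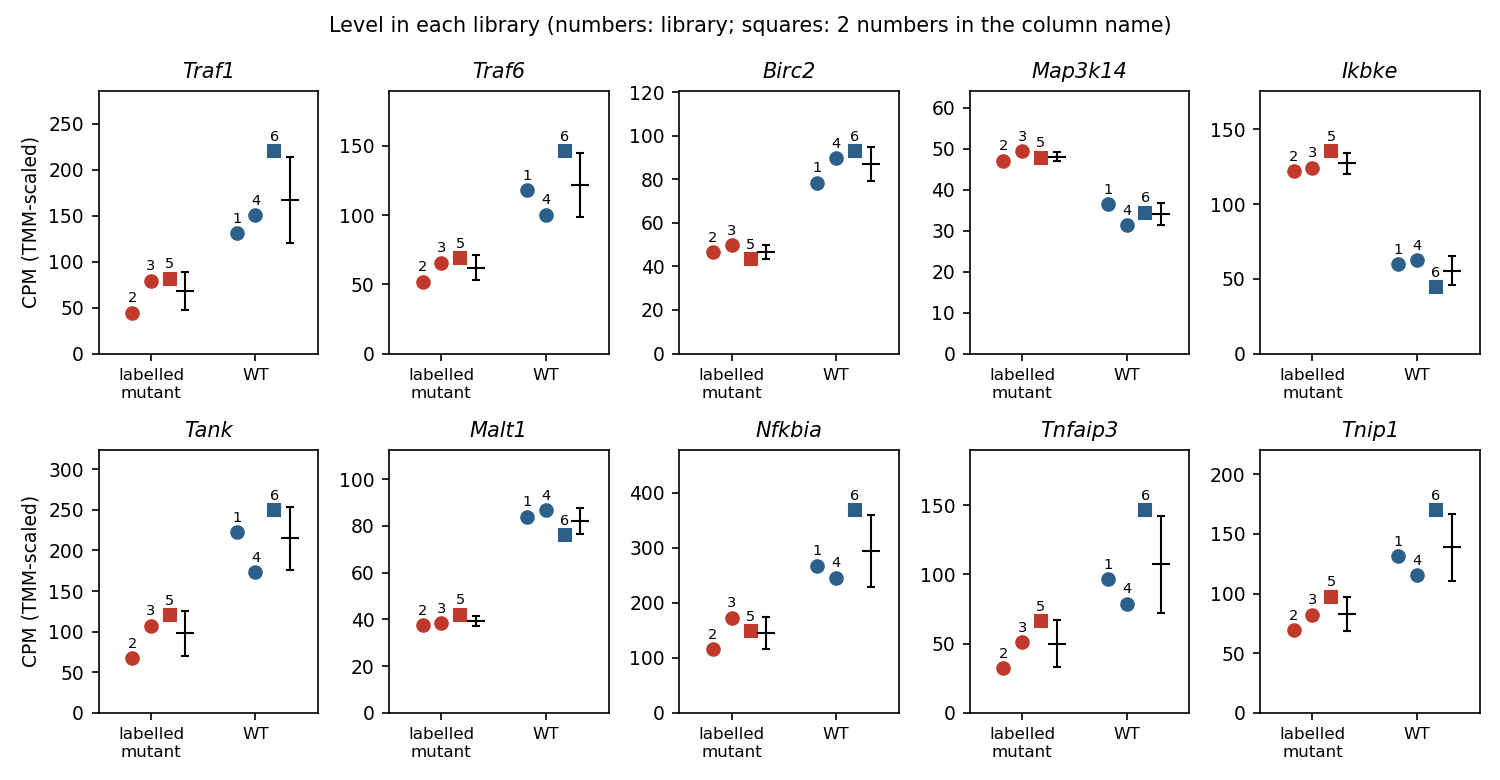
CPM (vertical axis, from 0) in each library for the 10 genes called with name format as a term, with the libraries labelled mutant left and WT right; points carry the library number, squares are the libraries with 2 numbers in the column name, and the bar is the mean ± SD of 3. In all 10 panels the groups do not overlap; *Malt1*, *Birc2* and *Map3k14* show little spread within groups, while *Traf1*, *Tnfaip3* and *Nfkbia* have library 2 lowest and library 6 highest.

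Among the 5 genes of the NF-kB subunits, the noncanonical pair *Nfkb2* and *Relb* was lowest against WT, and none passed in either edgeR fit. *Nfkb2*, which encodes p100 and its product p52 (chromosome 19, 46304320 to 46312385, plus strand), had 99.6, 178 and 147 CPM in libraries 2, 3 and 5, against 205, 179 and 247 CPM in WT libraries 1, 4 and 6. Library 3 almost reached WT library 4, and the log2 fold change of -0.57 (SE 0.236, adjusted p = 0.249) moved between -0.78 and -0.34 as single libraries were left out. On the opposite strand, exons of the long noncoding RNA gene *AC114539.1* cover 11.6% of its exon bases and those of *Psd* 6.52%. *Relb*, the usual partner of p52 (chromosome 7, 19606217 to 19629438, minus strand), had 32.9, 40.6 and 45.6 CPM in libraries 2, 3 and 5, against 53.1, 47.3 and 71.8 CPM in the WT libraries. Its groups did not overlap, at a log2 fold change of -0.53 (SE 0.197, adjusted p = 0.207). The canonical subunits were closer to WT: the log2 fold change was 0.04 (SE 0.124) for *Rela*, the gene of p65, -0.09 (SE 0.112) for *Nfkb1*, the gene of p105 and p50, and -0.22 (SE 0.136) for *Rel*, the gene of c-Rel. Their adjusted p-values were 0.943, 0.749 and 0.464.

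The ubiquitin-editing inhibitors had the lowest median log2 fold change of the 6 roles, at -0.58. All 4 genes lay below WT without overlap (100%, against 16.9% of all genes tested). With name format as a term *Tnfaip3* and *Tnip1* fell (50%, against 5.60% of all genes), 0 rose (against 3.08% of all genes) and *Cyld* and *Tnip2* did not pass. *Tnfaip3* (ENSMUSG00000019850, chromosome 10, 19000910 to 19015657, minus strand) encodes A20, which edits and trims ubiquitin chains on TRAF6 and other carriers. Its level was 32.3, 51.1 and 66.2 CPM in libraries 2, 3 and 5, against 96.7, 78.9 and 146 CPM in WT libraries 1, 4 and 6. The groups did not overlap, but the spread within each was wide, with library 5 nearest to WT library 4 (log2 fold change -1.10, SE 0.326, adjusted p = 0.144). *Tnip1* (chromosome 11, 54910785 to 54962917, minus strand), whose protein ABIN1 binds both A20 and ubiquitin chains, had 69.2, 82.3 and 97.2 CPM in libraries 2, 3 and 5, against 131, 115 and 169.7 CPM in the WT libraries. Its log2 fold change was -0.74 (SE 0.191, adjusted p = 0.116). *Cyld*, a deubiquitinase that takes chains off TRAF6 and NEMO, had 75.9, 82.8 and 85.6 CPM in libraries 2, 3 and 5, against 119, 94.2 and 114 CPM in the WT libraries (log2 fold change -0.42, SE 0.122, adjusted p = 0.139). *Tnip2*, the gene of the related ABIN2, had a log2 fold change of -0.25 (SE 0.107, adjusted p = 0.280). In the same libraries the summed osteoclast markers were lowest in library 2 and highest in library 6. *Tnfaip3*, *Tnip1* and *Tnip2* had this order too, while *Cyld* was lowest in library 2 and highest in library 1. The part of the osteoclast markers in these values was not tested.

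The IkB genes did not move together. *Nfkbia* (ENSMUSG00000021025, chromosome 12, 55489410 to 55492647, minus strand) encodes IkB-alpha, the inhibitor that IKK removes first and NF-kB restores. It had 116, 173 and 148 CPM in libraries 2, 3 and 5, against 267, 246 and 368 CPM in WT libraries 1, 4 and 6, without overlap. At means of 146 ± 28.8 CPM in the libraries labelled mutant and 294 ± 65.1 CPM in the WT libraries (SD, n = 3 each), the log2 fold change was -1.01 (SE 0.216, adjusted p = 0.0943), and *Nfkbia* fell with name format as a term. *Nfkbiz*, which encodes the nuclear protein IkB-zeta, a cofactor rather than a cytoplasmic inhibitor, had 18.4, 20.6 and 23.6 CPM in libraries 2, 3 and 5, against 13.2, 17.1 and 14.8 CPM in the WT libraries. Every library labelled mutant was above every WT library, but the gene did not pass (log2 fold change 0.47, SE 0.168, adjusted p = 0.193). *Nfkbib* and *Nfkbie*, the genes of IkB-beta and IkB-epsilon, overlapped between groups, with log2 fold changes of 0.08 (SE 0.182) and 0.09 (SE 0.244); 14.5% of the exon bases of *Nfkbib* lie opposite *Ccer2*.

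Promoter windows are shown for the 3 inhibitors that fell and for *Nfkb2*, since these genes are known NF-kB targets and the window shows where the letters of the consensus stand. Where a gene has several windows, the one nearest to its start in the count table is shown, for *Nfkb2* 417 and for *Tnfaip3* 247 bases from it. Each runs from 250 bases before to 50 bases after a RefSeq start (GRCm38.p6), 300 bases in all, 5′ to 3′ on the strand of the gene, and capitals mark matches to the 10-letter kB consensus on either strand. They are *Nfkbia* at chr12:55492598-55492897, minus strand, *Tnfaip3* at chr10:19015361-19015660, minus strand, *Tnip1* at chr11:54962891-54963190, minus strand, and *Nfkb2* at chr19:46304487-46304786, plus strand.
Nfkbia: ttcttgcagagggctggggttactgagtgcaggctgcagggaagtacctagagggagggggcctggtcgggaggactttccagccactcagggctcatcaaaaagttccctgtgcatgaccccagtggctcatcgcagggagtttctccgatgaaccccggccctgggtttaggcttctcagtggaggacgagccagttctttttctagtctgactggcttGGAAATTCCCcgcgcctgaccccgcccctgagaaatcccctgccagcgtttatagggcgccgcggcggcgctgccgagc
Tnfaip3: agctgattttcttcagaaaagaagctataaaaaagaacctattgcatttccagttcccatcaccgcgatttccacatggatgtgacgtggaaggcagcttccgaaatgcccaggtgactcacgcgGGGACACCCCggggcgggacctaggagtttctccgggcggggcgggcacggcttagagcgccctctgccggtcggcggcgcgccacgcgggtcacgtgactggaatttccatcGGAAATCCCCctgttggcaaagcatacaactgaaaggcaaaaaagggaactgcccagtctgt
Tnip1: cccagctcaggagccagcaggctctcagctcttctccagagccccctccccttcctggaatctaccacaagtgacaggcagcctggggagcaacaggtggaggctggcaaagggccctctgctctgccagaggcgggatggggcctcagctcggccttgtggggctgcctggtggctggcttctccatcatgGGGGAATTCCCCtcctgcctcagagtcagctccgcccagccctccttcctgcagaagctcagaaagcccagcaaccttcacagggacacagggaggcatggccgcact
Nfkb2: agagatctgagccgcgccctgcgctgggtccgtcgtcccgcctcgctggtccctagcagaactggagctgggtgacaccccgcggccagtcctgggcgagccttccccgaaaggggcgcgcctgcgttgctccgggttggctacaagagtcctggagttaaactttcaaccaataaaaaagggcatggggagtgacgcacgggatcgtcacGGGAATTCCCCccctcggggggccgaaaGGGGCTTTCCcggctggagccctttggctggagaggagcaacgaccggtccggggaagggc

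The marked stretch starts 29 bases before the start in *Nfkbia*, 125 and 12 bases before it in *Tnfaip3*, 58 bases before it in *Tnip1*, where overlapping matches span 12 bases, and 39 and 11 bases before it in *Nfkb2*. Of the 37 genes 30 had a window in the table, and 12 of these 30 (40.0%) held a match: *Bcl10*, *Cyld*, *Map3k7*, *Nfkb2*, *Nfkbia*, *Nfkbie*, *Rel*, *Sqstm1*, *Tank*, *Tnfaip3*, *Tnip1* and *Traf3*. The share was 12.5% of the genes tested that had a window and 9.55% of all genes with one. With the letters GGGNNTTTC instead, also searched on both strands, 10 of the 30 (33.3%) held a match, against 5.22% of the genes tested and 5.06% of all genes. Matches of the 2 patterns can overlap. Of the printed windows, that of *Nfkbia* held 3 matches to these letters, that of *Tnfaip3* 2, that of *Nfkb2* 1 and that of *Tnip1* 0. A match is a description of letters and says nothing of binding in these cells. Genes with and without a match were found on both sides of 0. Of those with a match, *Tank*, *Nfkbia*, *Tnfaip3* and *Tnip1* fell with name format as a term, and the others did not pass. In the same fit *Traf1*, *Traf6* and *Birc2* fell and *Ikbke* and *Map3k14* rose, and their windows hold no match. *Malt1* fell as well but had no window to search. The 7 members without a window were *Malt1*, *Relb*, *Nfkb1*, *Nfkbiz*, *Map3k8*, *Ikbkb* and *Tab1*. A link between match and fold change was not tested.

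Many members shared an order of libraries. For 16 of the 37 (43.2%, against 15.6% of all genes tested), library 2, labelled mutant, was the lowest of all 6 and WT library 6 the highest. Of the 8 genes that fell with name format as a term, 6 had this order; *Malt1* and *Birc2* did not. The median of the ubiquitin-editing inhibitors around each gene's mean was -0.46, -0.27 and -0.13 (log2) in libraries 2, 3 and 5, against 0.32, 0.10 and 0.48 in WT libraries 1, 4 and 6. For the ligases and adaptors it was -0.36, -0.12 and -0.11 in libraries 2, 3 and 5, against 0.25, 0.10 and 0.35 in the WT libraries. In both roles each library labelled mutant lay below each WT library. The subunit genes overlapped, at -0.13, -0.09 and -0.05 in libraries 2, 3 and 5, against 0.17, -0.06 and 0.26 in the WT libraries. The summed osteoclast markers had the same lowest and highest library.

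**Figure D3:**
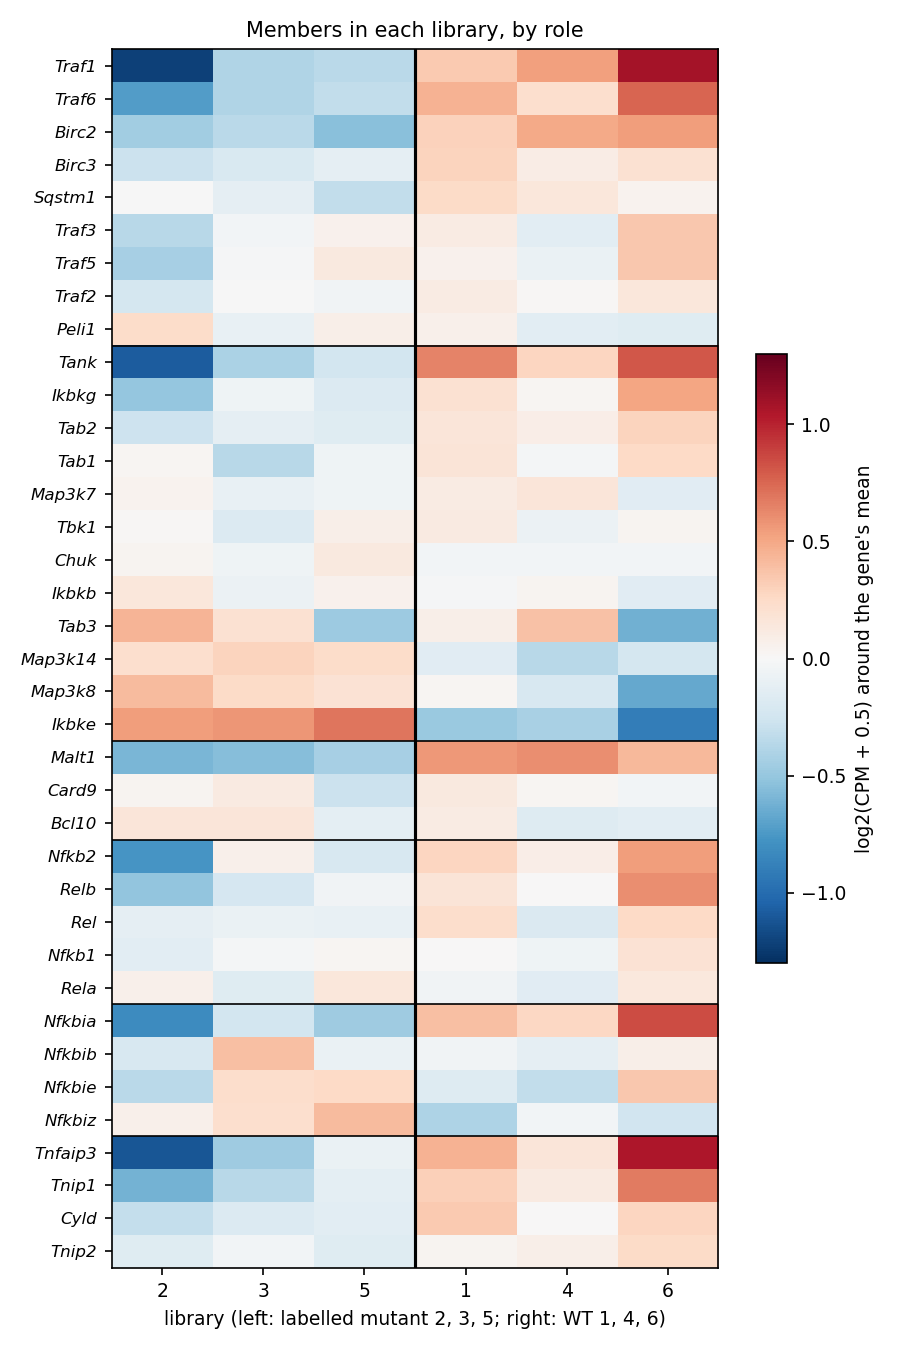
Level of each of the 37 genes (rows, by role) in each library (columns, labelled mutant 2, 3 and 5 on the left, WT 1, 4 and 6 on the right), as log2(CPM + 0.5) around the gene's own mean; blue is lower and red higher. Library 2 is the bluest and library 6 the reddest in 16 of 37 rows, and *Ikbke*, *Map3k8* and *Map3k14* show the opposite sides.

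Levels were compared between genes per kilobase of exon. *Sqstm1* was the highest of all, at 183 CPM per kb in the libraries labelled mutant and 224 CPM per kb in the WT libraries. *Nfkbia* came next, at 90.4 CPM per kb in the libraries labelled mutant and 182 CPM per kb in the WT libraries, far above the other IkB genes. Among the subunits *Nfkb2* led with 30.8 CPM per kb in the libraries labelled mutant and 45.9 CPM per kb in the WT libraries, followed by *Rela* with 25.1 CPM per kb in the libraries labelled mutant and 24.4 CPM per kb in the WT libraries. *Tab2* led the kinases and their partners (34.2 CPM per kb labelled mutant, 44.0 WT). *Tnip1* led the ubiquitin-editing inhibitors (23.4 labelled mutant, 39.2 WT). *Card9* led its complex (25.0 labelled mutant, 26.4 WT), where *Malt1* was the lowest (2.18 labelled mutant, 4.55 WT). The leaders depend on the length used in 2 of the 6 roles: per kilobase of the longest transcript, *Tank* and *Bcl10* take the place of *Tab2* and *Card9*. *Ikbke* had 14.1 CPM per kb in the libraries labelled mutant and 6.16 CPM per kb in the WT libraries. The matching values of *Tank* were 16.1 CPM per kb labelled mutant and 35.3 CPM per kb WT. Per kilobase of the longest transcript the gap in the libraries labelled mutant was wider, at 21.7 CPM per kb for *Ikbke* and 36.4 CPM per kb for *Tank*.

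**Figure D4:**
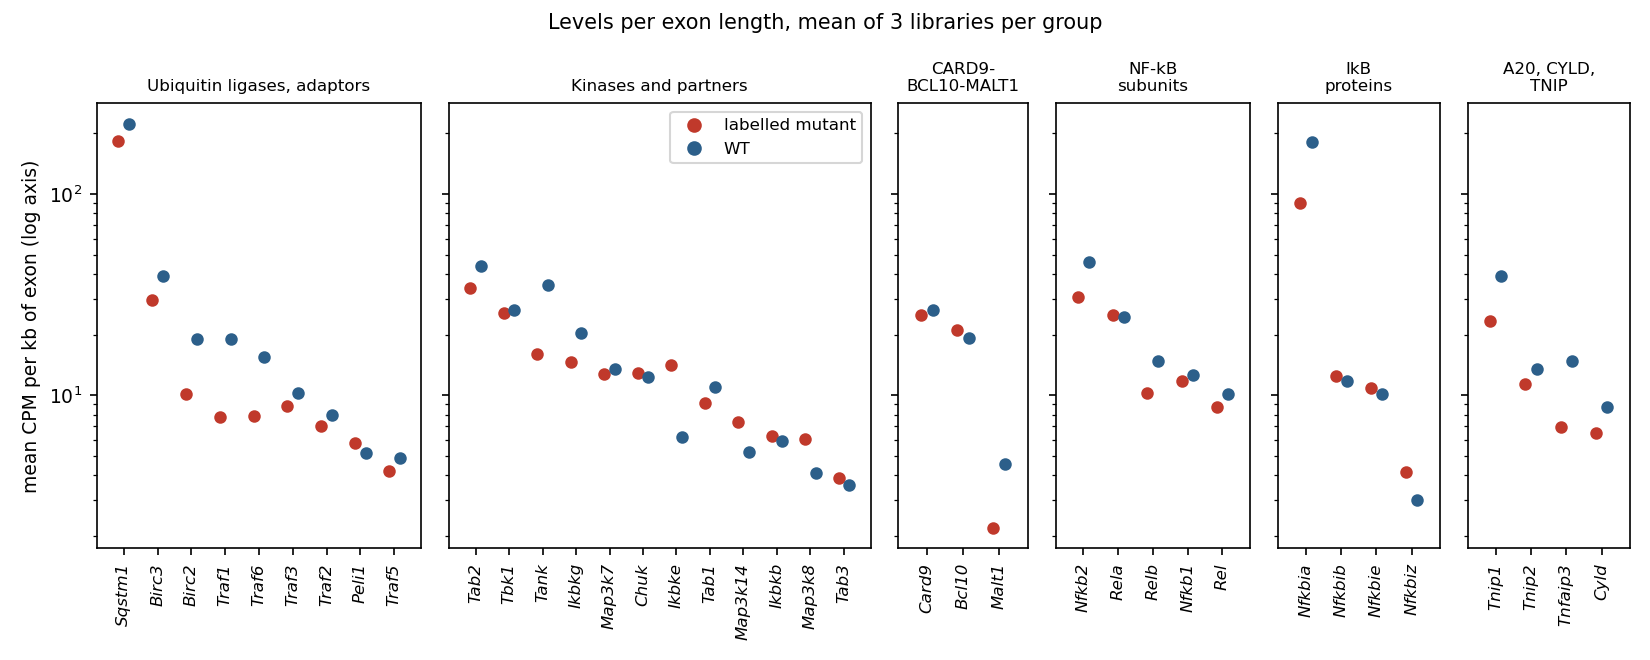
Mean CPM per kb of exon (vertical log axis) over 3 libraries for each of the 37 genes, by role, with the libraries labelled mutant in red to the left of WT in blue. *Sqstm1* and *Nfkbia* stand above all others, and the colours are widest apart for *Traf1*, *Ikbke*, *Tank*, *Tnfaip3*, *Malt1*, *Nfkbia* and *Traf6*.

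Other genes of the pathway and its neighbours were followed as lists. Of 48 further NF-kB pathway genes, 22 lay below and 26 above 0, with a median log2 fold change of 0.03. With genotype alone 0 passed, and 10 had an unadjusted p under 0.05 (20.8%, against 19.6% of all genes). DESeq2 called 3 lower (5.31% of all genes) and 4 higher (4.67% of all genes). With name format as a term 3 fell (6.25%, against 5.60% of all genes) and 1 rose (2.08%, against 3.08% of all genes). These shares were near those of all genes, and the genes named here are given for their own values. *Traf3ip2*, which encodes the adaptor ACT1 of interleukin-17 signalling, had 8.47, 11.1 and 10.8 CPM in libraries 2, 3 and 5, against 23.7, 24.9 and 28.6 CPM in WT libraries 1, 4 and 6 (log2 fold change -1.35, SE 0.169, adjusted p = 0.0544). *Tnfrsf11a*, the gene of RANK itself, had 36.1, 61.2 and 104 CPM in libraries 2, 3 and 5, against 115, 101 and 203 CPM in the WT libraries. Library 5 lay above WT library 4, so the groups overlapped, and the log2 fold change was -1.06 (SE 0.435, adjusted p = 0.249). Both fell with name format as a term, and the other gene that fell was *Otud7b* (log2 fold change -0.71, adjusted p = 0.131), a deubiquitinase that acts on TRAF3. *Irak3*, an inhibitor of Toll-like receptor signalling, rose with name format as a term, at 37.7, 31.4 and 31.9 CPM in libraries 2, 3 and 5 and 23.7, 20.6 and 12.7 CPM in the WT libraries (log2 fold change 0.83, SE 0.240, adjusted p = 0.140).

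The MAP kinase arm, which RANK also feeds through TRAF6 and TAK1, had 9 of 18 genes on each side of 0 and a median of -0.01. Of the 18, 3 had an unadjusted p under 0.05 (16.7%, against 19.6% of all genes). DESeq2 called 2 lower (5.31% of all genes) and 1 higher (4.67% of all genes). With name format as a term *Fosl2* and *Mapk8* fell (11.1%, against 5.60% of all genes) and 0 rose. *Fosl2*, a member of the AP-1 family, averaged 329 ± 148 CPM in the libraries labelled mutant and 907 ± 334 CPM in the WT libraries (SD, n = 3 each; log2 fold change -1.46, SE 0.432, adjusted p = 0.144). *Mapk8*, the gene of JNK1, averaged 27.9 ± 1.07 CPM in the libraries labelled mutant and 40.3 ± 5.47 CPM in the WT libraries (log2 fold change -0.53, SE 0.128, adjusted p = 0.108).

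Known NF-kB targets outside the list went both ways. Of 36 listed, 28 passed the filter on low counts, 22 of them above and 6 below 0, with a median log2 fold change of 0.68. With genotype alone 0 passed, and 16 had an unadjusted p under 0.05 (57.1%, against 19.6% of all genes). DESeq2 called 7 higher (4.67% of all genes) and 3 lower (5.31% of all genes). With name format as a term 5 rose (17.9%, against 3.08% of all genes) and 5 fell (17.9%, against 5.60% of all genes). The summed level of the 36 genes was 1079, 1479 and 1814 CPM in libraries 2, 3 and 5, against 1683, 1528 and 2337 CPM in WT libraries 1, 4 and 6. These sums overlapped between the groups, with library 2 the lowest and library 6 the highest. *Ccl4*, a chemokine gene, averaged 6.15 ± 1.67 CPM in the libraries labelled mutant and 1.52 ± 0.624 CPM in the WT libraries (log2 fold change 2.00, SE 0.439, adjusted p = 0.0952), and rose with name format as a term. *Cd83*, an activation marker of antigen-presenting cells, averaged 26.1 ± 8.31 CPM in the libraries labelled mutant and 8.89 ± 2.83 CPM in the WT libraries, and rose as well (log2 fold change 1.56, SE 0.330, adjusted p = 0.0925). Those that fell included *Tnfrsf9*, the gene of the receptor 4-1BB, with 3.29 ± 1.39 CPM in the libraries labelled mutant and 14.2 ± 5.79 CPM in the WT libraries (log2 fold change -2.11, SE 0.433, adjusted p = 0.0917). *Nfatc1*, the master regulator of osteoclast genes and also 1 of the 10 osteoclast markers used here, averaged 281 ± 119 CPM in the libraries labelled mutant and 920.3 ± 309.6 CPM in the WT libraries (log2 fold change -1.71, SE 0.406, adjusted p = 0.104), and fell with name format as a term. Several targets that were higher are also made by macrophages, and the macrophage markers were higher in the same libraries; their part in these values was not tested.

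**Figure D5:**
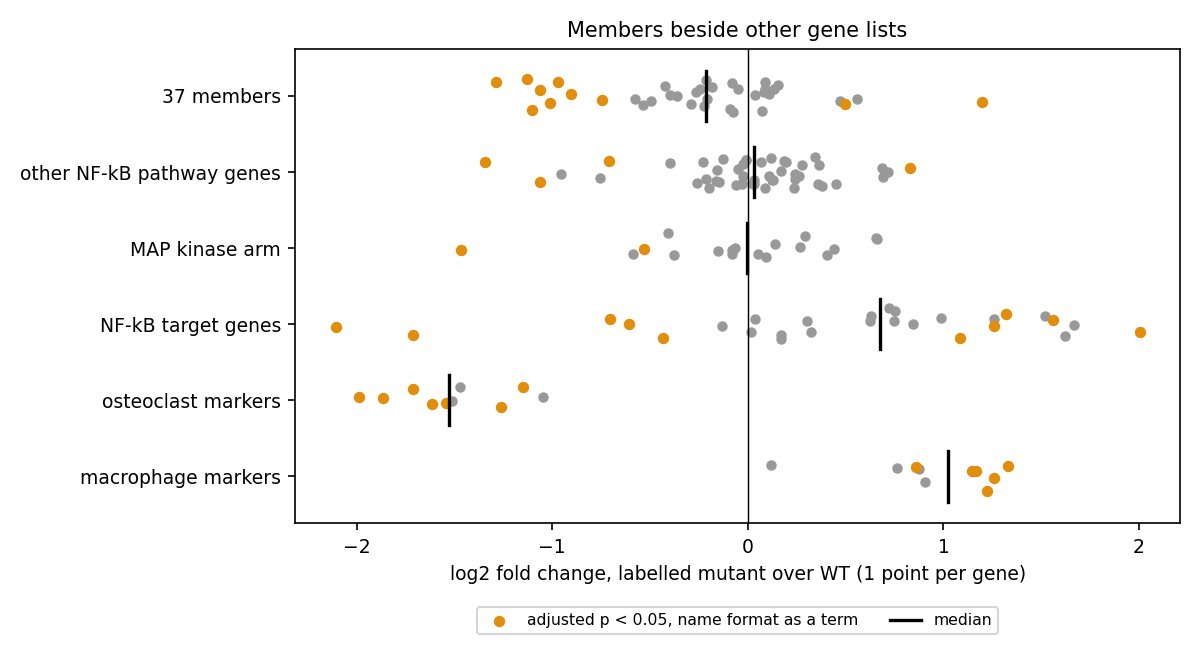
Log2 fold change (labelled mutant over WT, horizontal axis) of each tested gene in 6 lists, 1 point per gene, with the list's median as a vertical bar and orange for genes called with name format as a term. The medians are -0.22 for the 37 members, 0.03 for other pathway genes, -0.01 for the MAP kinase arm, 0.68 for NF-kB targets, -1.53 for osteoclast markers and 1.02 for macrophage markers.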

How the data were processed

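RNA was measured in 6 libraries. Per the labels' protocols the kit was stranded and reads were single, 75 bases long. Per the submitters' processing notes, the tools named are TopHat2 2.0.13, Bowtie2 2.2.3 and SAMtools 0.1.19, with build mm10. The values that the authors deposited are whole-number counts, not normalized; how reads were counted, with which annotation and strand setting, is not given in the sources used here. The table had 23264 rows, of which 60 were exact repeats and left out. Columns were assigned to genotype by name. By the labels each group has samples of both sexes, so not all of them came from the same animal. Nothing says that samples of the same sex came from separate animals, so p-values may in part measure technical spread. No 2 libraries agreed within sampling noise (lowest chi-square per degree of freedom 27.4).

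The counts were TMM-scaled, filtered with filterByExpr and tested with the quasi-likelihood test of edgeR 4.0.16 (R 4.3.3), genotype being the only term, with Benjamini-Hochberg adjustment over all 14040 genes and a threshold of 0.05. Standard errors are the size of the fold change over the square root of F. Alternatives were name format as a term, DESeq2 1.42.0, RLE scaling, no filter, single libraries left out and 1-number libraries only. Exon lengths came from GENCODE M21 and promoter windows from RefSeq. Values per library are given for the 20 members that passed in an edgeR fit, had an unadjusted p under 0.05 or led their role per length, and the other 17 are given by their fold changes or ranges. Members, lists and tests were chosen with earlier results of these data known.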

Additional observations from a re-analysis of the deposited data

How the results depend on the processing

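With RLE scaling the counts of called genes did not change: 7 of all genes rose and 3 fell, as with TMM, and of the members 0 rose and 1 fell. Without the low-count filter, 46 of all genes rose and 35 fell, and among members 1 rose (*Ikbke*) and 2 fell (*Malt1*, *Birc2*). Name format as a term gave 433 that rose and 786 that fell, with 2 and 8 members; DESeq2 gave 656 and 746, with 2 and 10 members. Leaving out 1 library gave 0 to 2 that rose and 0 to 1 that fell among all genes, with 0 and 0 members. Among 1-number libraries only, 1 rose and 0 fell, with 0 and 0 members. In that fit 13 of the 37 members had an unadjusted p under 0.05, against 1818 of all 14253 genes tested. A further alternative, added once the data had been seen, kept name format as a term and left out library 1, 2, 3 or 4: 343, 187, 697 and 74 of all genes rose and 221, 231, 1148 and 96 fell, with 1 member that rose each time and 4, 6, 11 and 2 that fell; *Malt1*, *Ikbke* and *Traf6* were called in all 4 of these fits. The log2 fold change of *Card9* ran from -0.16 to 0.030 as single libraries were left out, being above 0 without library 5, and was 8.58e-05 among 1-number libraries; the cause was not tested, and no other of the 20 members given by library changed sign. No paired analysis was possible because the column names carry no replicate number. The lowest count of a member in any library was 113, and the spread between 3 libraries per group (a common biological coefficient of variation of 40.9%) limits what can be called.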

Other observations

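Spread within groups differed among members. In *Tnfaip3* the highest library had 2.05 times the level of the lowest among those labelled mutant and 1.85 times among WT, while in *Malt1* the ratios were 1.12 among those labelled mutant and 1.14 among WT.

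Member windows held a median of 20 CpG, the same as the windows of all genes tested, against 7 over all windows.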
